A study of Mus musculus with 204 samples.

Results

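The transcripts of 6 genes of the complement system were followed across 21 mouse tissues: Hc, C8g, C4bp, Cd55, Cr1l and Cfp. They were chosen by name as components and regulators of complement, and all 6 were found among the 13153 genes used. Complement is a cascade of blood proteins that tags and lyses microbes and debris. Its classical, lectin and alternative pathways meet at convertases, enzymes that split the central components and lead to a pore, the membrane attack complex. Most soluble components are made by hepatocytes, while membrane-bound regulators protect the body's own cells in nearly every tissue.

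RNA was sequenced from male C57BL/6J mice that were either diet-induced obese (DIO) or lean. DIO mice had been placed on a diet with 60% fat at 4 weeks of age and kept on it for 10 weeks, and lean mice ate chow with 13.1% fat. C57BL/6J is an inbred wild-type strain, and no transgene or drug was given. The 204 libraries were 5 DIO and 5 lean ones for most tissues; subcutaneous fat had 3 DIO and 5 lean, mesenteric fat 4 DIO and 3 lean, and EDL (the extensor digitorum longus, a hindlimb muscle) 5 DIO and 4 lean. Age and number of tissues are stated differently in different labels, and the labels did not tie libraries to mice, so p-values measure the spread between libraries.

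Levels are given as CPM, read counts scaled to a common library total. Libraries held 6.58 to 129.7 M reads with a median of 20.7 M. Several libraries carried markers of another tissue. The summed CPM of 6 hepatocyte markers (Apoa2, Serpinc1, Fga, Fgb, Fgg and F2) passed 100 in 9 libraries outside liver: adrenal DIO 1, lean 2 and lean 4, stomach DIO 5, lean 3 and lean 5, and retroperitoneal fat DIO 4, lean 3 and lean 4. The defining adrenal marker Hsd3b1 was at 0.173 and 0.0833 CPM in adrenal DIO 1 and DIO 2 and at 0 in lean 1, against 4239 CPM or more in the other 7 adrenal libraries. The follicular B cell marker Cr2 stood at 269 CPM in mesenteric fat DIO 2 and at 147 and 146 CPM in subcutaneous fat lean 2 and lean 3. Markers of skeletal muscle (Tnnc2, Ttn, Neb and Tnni1) summed to 1416 CPM in brown fat DIO 5, 574 CPM in brown fat lean 2 and 214 CPM in retroperitoneal fat lean 2, and T cell markers (Cd2, Cd247, Cd28, Icos and Ctla4) to 123 CPM in retroperitoneal fat DIO 3.

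All 6 genes lie on the minus strand in GENCODE M21 (mouse build GRCm38.p6), to which they were matched by Ensembl identifier. Hc (ENSMUSG00000026874, chr2:34983331-35061438) encodes complement component C5, whose larger fragment starts the membrane attack complex and whose smaller fragment attracts leukocytes. C8g (ENSMUSG00000015083, chr2:25498651-25501719) encodes the gamma chain of C8, a later subunit of that complex. C4bp (ENSMUSG00000026405, chr1:130634773-130661632) encodes the C4b-binding protein, a soluble inhibitor of the classical and lectin convertases. Cd55 (ENSMUSG00000026399, chr1:130439027-130462744) encodes decay-accelerating factor, a membrane-anchored protein that takes convertases apart. Cr1l (ENSMUSG00000016481, chr1:195097382-195131586) encodes Crry, a membrane regulator of rodents that acts on C3b and C4b. Cfp (ENSMUSG00000001128, chrX:20925454-20931555) encodes properdin, which stabilises the alternative pathway convertase and is known to be made by myeloid cells. Cd55b, Cd55 and C4bp lie within 273 kb of chromosome 1, and Cd46, Cr1l and Cr2 within 140 kb further along it.

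Reads of overlapping genes bear on 3 of the 6. C8g shares 970 bases with Fbxw5 on the opposite strand, Hc spans the antisense gene Gm13449, and Cd55 shares 169 bases with the antisense gene Gm16083. The libraries were made with a strand-specific kit, but the strand setting of the counting is not given in the sources used here. Gm13449 had 0 reads in every liver DIO, epididymal fat and heart library and stayed at or under 0.0754 CPM in lean liver. Cd55 has a close paralog, Cd55b, which was at or under 0.447 CPM in ileum and at 0 in all but 1 brown fat library (lean 1, 1.07 CPM). A split of reads between these 2 genes stays uncertain.

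The promoter windows of 4 of the genes are shown because their levels fall into contrasting patterns: Hc, C4bp and C8g were highest in liver, and Cfp moved with diet in fat. Each window runs from 250 bases before to 50 bases after the RefSeq start of transcription (GRCm38.p6) and is written along the minus strand of the chromosome, 5′ to 3′. Windows were found for all 6 genes, with 2 for C8g, of which the upstream one is shown. They lie at chr2:35061363-35061662 for Hc, chr1:130661569-130661868 for C4bp, chr2:25501670-25501969 for C8g and chrX:20931506-20931805 for Cfp. Searches on both strands used GTTAAT followed after any 1 base by ATT, the opening letters of the sequence known to bind HNF1, a liver transcription factor, and GAGGAA, the PU box known to bind PU.1, a myeloid transcription factor. The motifs were chosen with the members' patterns known. Capitals mark the matches, which read in reverse complement in Hc and Cfp.
Hc: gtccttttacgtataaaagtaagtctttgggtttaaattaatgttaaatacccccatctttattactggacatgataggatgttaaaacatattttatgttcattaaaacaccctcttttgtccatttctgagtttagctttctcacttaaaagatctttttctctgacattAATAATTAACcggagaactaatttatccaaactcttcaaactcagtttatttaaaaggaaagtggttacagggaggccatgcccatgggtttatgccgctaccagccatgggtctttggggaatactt
C4bp: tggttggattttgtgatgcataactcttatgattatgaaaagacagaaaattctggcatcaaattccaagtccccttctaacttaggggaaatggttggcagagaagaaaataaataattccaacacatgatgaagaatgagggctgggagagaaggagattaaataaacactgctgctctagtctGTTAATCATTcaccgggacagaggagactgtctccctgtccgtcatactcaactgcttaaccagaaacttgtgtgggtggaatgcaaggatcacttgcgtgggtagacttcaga
C8g: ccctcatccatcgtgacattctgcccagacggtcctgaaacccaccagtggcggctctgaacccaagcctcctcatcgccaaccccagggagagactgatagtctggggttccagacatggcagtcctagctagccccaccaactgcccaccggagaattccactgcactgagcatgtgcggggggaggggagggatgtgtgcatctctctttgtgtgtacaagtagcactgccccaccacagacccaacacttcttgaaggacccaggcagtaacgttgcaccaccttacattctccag
Cfp: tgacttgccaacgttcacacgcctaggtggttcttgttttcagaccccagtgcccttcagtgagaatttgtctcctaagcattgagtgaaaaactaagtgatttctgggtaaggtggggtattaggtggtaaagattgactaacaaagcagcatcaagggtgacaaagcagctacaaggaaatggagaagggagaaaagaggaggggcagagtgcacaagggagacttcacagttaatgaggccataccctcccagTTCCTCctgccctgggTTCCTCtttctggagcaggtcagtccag
With the start of transcription counted as +1, the longer motif began at -78 in Hc and at -64 in C4bp, and these letters were in 0.399% of 32851 RefSeq windows of the same length. They were in neither C8g window and not in those of Cd55, Cr1l and Cfp. GAGGAA occurred 2 times in the Cfp window and in none of the others, and 28.3% of all windows held it, 4.82% of them at least 2 times. The matches of the 2 motifs did not overlap. A match is a stretch of letters, not a measured binding site.

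Hc, C8g and C4bp were liver transcripts in both diets. Hc was at 963, 1176, 909.9, 885 and 808 CPM in DIO livers and at 826, 962, 1061, 937 and 935 CPM in lean livers. C8g was at 357, 311, 281, 304 and 319 CPM in DIO livers, against 321, 334, 352, 340.4 and 309.5 CPM in lean livers. C4bp was at 613, 794, 603, 603 and 618 CPM in DIO livers and at 622, 576, 614, 653 and 606 CPM in lean livers. For all 3 genes the diets overlapped in liver and the lean liver range lay clear of the next tissue in order. Per kilobase of exon, levels in lean liver were 222 CPM for C8g, 151 for Hc and 91.2 for C4bp, against 9.04 for Cfp, 4.11 for Cr1l and 2.92 for Cd55.

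No member passed the test in liver, where limma on log2(CPM + 1) with Benjamini-Hochberg adjustment called 23.5% of 2716 genes at an adjusted p under 0.05. None had an unadjusted p under 0.05, and edgeR and DESeq2 called none. The log2 difference of DIO over lean, on log2(CPM + 1) here and below, was -0.00028 (SE 0.10) for Hc, -0.08 (SE 0.07) for C8g and 0.07 (SE 0.08) for C4bp. Liver levels of Cd55, Cr1l and Cfp differed by -0.15, 0.05 and 0.19, with adjusted p-values (limma) of 0.412, 0.635 and 0.403. The hepatocyte markers summed to 16965 to 20085 CPM in DIO livers and 20673 to 24054 CPM in lean livers. Of the 6 markers, 4 had every DIO liver below every lean one. By limma, which is a different rule, 124 of 2716 genes fell in liver. The share of all genes with separate ranges there is not given. The part of these markers in the member values was not tested.

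**Figure D1:**
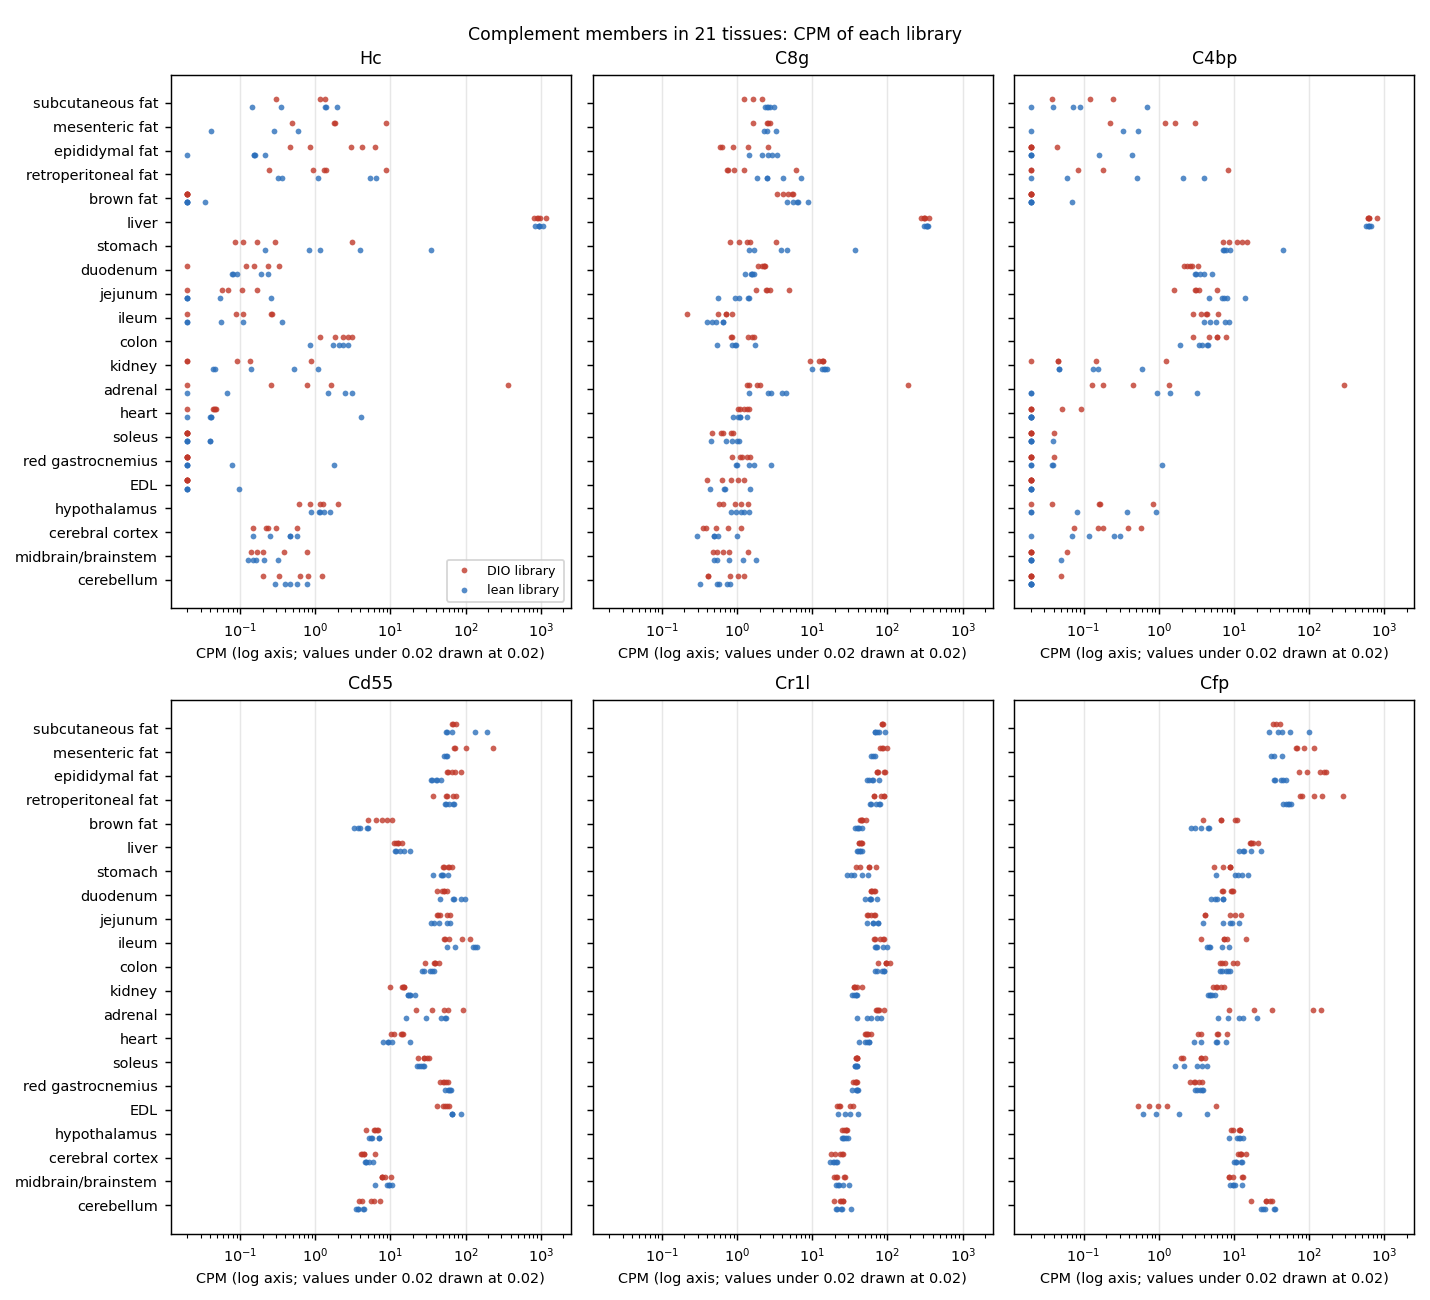
CPM of the 6 complement genes in each library, on a log axis, for 21 tissues (rows; DIO red and above, lean blue and below within a row; values under 0.02 are drawn at 0.02). Hc, C8g and C4bp stand apart in liver at 281 to 1176 CPM, Cd55 and Cr1l are spread over all tissues, and Cfp is highest in white fat.

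Away from liver, the 3 liver-type genes parted ways. C8g was next highest in kidney, at 13.9, 13.6, 13.9, 12.2 and 9.42 CPM in DIO kidneys and 13.7, 14.5, 10.02, 15.8 and 14.95 CPM in lean kidneys, where Hc did not exceed 1.09 CPM and C4bp not 1.26 CPM. C4bp was next highest in the digestive tract: its DIO and lean means were 10.8 and 15.1 CPM in stomach (lesser curvature), 2.64 and 3.77 in duodenum, 3.41 and 8.15 in jejunum, 4.21 and 6.10 in ileum, and 5.41 and 3.58 in colon. Hc stayed at or under 0.367 CPM in every small intestine library, and at 1.17 to 3.12 CPM in DIO colon and 0.858 to 2.73 CPM in lean colon. Hc had 0 reads in every DIO library of brown fat, soleus, red gastrocnemius and EDL, which allows up to 3 reads a library, and C4bp had 0 reads in 76 of 204 libraries. C8g was read in all 204 libraries, and at least 1 CPM of it in 131.

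In the 2 libraries with most hepatocyte marker RNA outside liver, all 3 genes stood far above the rest of the tissue. Adrenal DIO 1, with 9378 CPM of hepatocyte markers, or 52.6% of the DIO liver mean, held 371 CPM of Hc (39.1% of the DIO liver mean), 188 CPM of C8g (59.8%) and 293 CPM of C4bp (45.3%). The other 4 DIO adrenal libraries held at most 1.62 CPM of Hc, 2.03 CPM of C8g and 1.36 CPM of C4bp. Stomach lean 5, with 1125 CPM of hepatocyte markers (4.93% of the lean liver mean), held 35.01 CPM of Hc (3.71%), 37.1 CPM of C8g (11.2%) and 44.1 CPM of C4bp (7.18%). Retroperitoneal fat DIO 4, lean 3 and lean 4 held 8.70, 5.33 and 6.47 CPM of Hc, against at most 1.41 CPM in the other 7 libraries of that depot. No member passed the test in stomach or adrenal gland, where 0.0303% of 3295 and 0.148% of 3370 genes were called. The DIO adrenal means of Hc, C8g and C4bp rest on DIO 1, and the lean stomach means of Hc and C8g mostly on lean 5. C4bp was at 7.07 to 8.93 CPM in the other lean stomachs and at 7.19 to 14.7 CPM in DIO stomachs, lowest in DIO 5. At an unadjusted p under 0.05 there were 0 of 6 members in stomach and 1 of 6 in adrenal gland (Cfp), and edgeR and DESeq2 made no call there. A single limma fit with 1 spread for all libraries called Cfp, Cr1l and C4bp in adrenal gland and C8g and Cr1l in stomach.

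**Figure D2:**
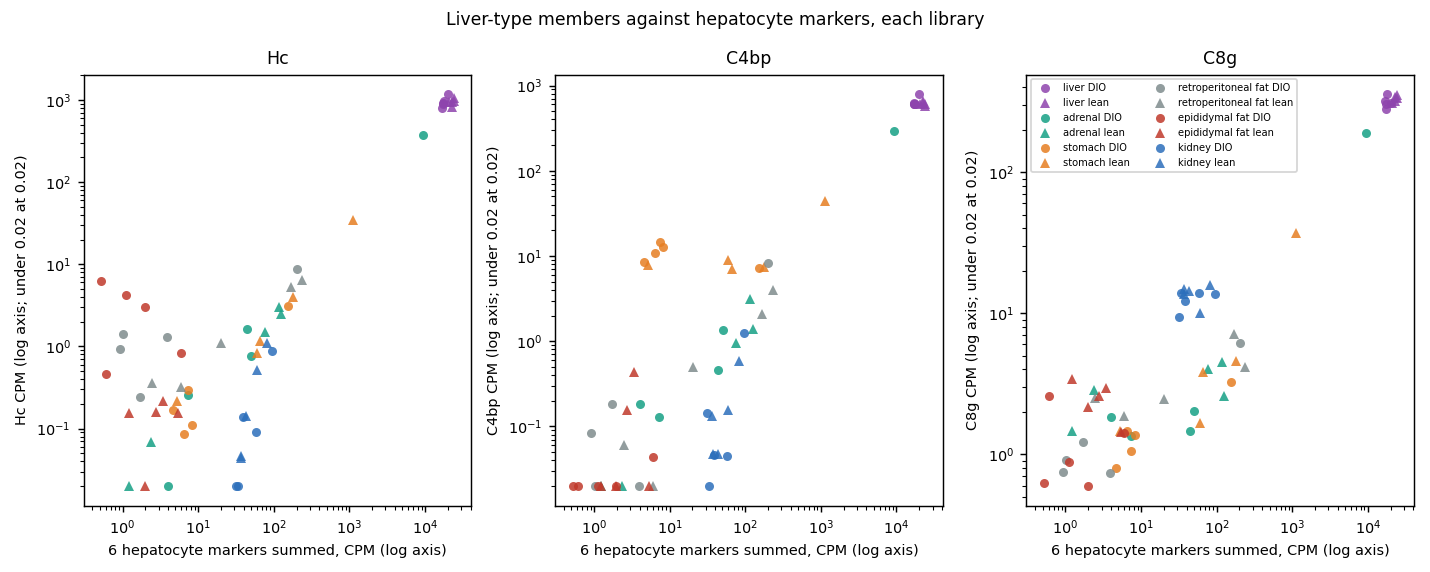
Hc, C4bp and C8g (CPM, log axis, values under 0.02 drawn at 0.02) against the summed CPM of 6 hepatocyte markers (log axis) for each library of 6 tissues (circles DIO, triangles lean). Adrenal DIO 1 lies beside the livers in all 3 panels, at marker sums under 100 CPM C8g in kidney and C4bp in stomach lie above the other tissues, and Hc in DIO epididymal fat lies at 0.456 to 6.33 CPM with marker sums of 0.522 to 6.02 CPM.

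Cd55 and Cr1l were found in all 204 libraries at 1 CPM or more. Lean means of Cr1l ran from 19.4 ± 1.61 CPM in cerebral cortex to 81.2 ± 10.6 CPM in colon (SD, n = 5 each), and every tissue overlapped its neighbour in this order. Brain regions and EDL held the 5 lowest lean means of Cr1l, and the 7 highest were in colon, ileum, jejunum and the 4 white fat depots. Cd55 covered a wider range, from 3.95 ± 0.418 CPM in lean cerebellum and 4.19 ± 0.755 CPM in lean brown fat to 106 ± 38.8 CPM in lean ileum. Ranges of neighbours did not overlap between soleus at 22.7 to 27.7 CPM and kidney at 17.005 to 21.2 CPM, the next tissue below it. Subcutaneous fat stood next to ileum, with 67.2, 66.6 and 74.5 CPM in DIO libraries and 56.3, 132, 196, 65.3 and 54.99 CPM in lean libraries, where the 2 libraries with high Cr2 were the highest. Per kilobase of exon Cd55 exceeded Cr1l in lean ileum (21.8 against 7.71 CPM), while Cr1l exceeded Cd55 in lean cerebellum (2.38 against 0.814 CPM).

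Cfp was highest in white fat. Lean means were 53.4 ± 28.1 CPM in subcutaneous, 51.5 ± 4.89 in retroperitoneal, 41.01 ± 6.27 in epididymal and 35.9 ± 6.45 CPM in mesenteric fat (SD, n = 5, 5, 5 and 3). Cerebellum came next with 26.4 ± 5.82 CPM in DIO mice and 28.2 ± 5.70 CPM in lean mice (SD, n = 5 each), above liver at 15.7 CPM and cerebral cortex at 11.3 CPM in lean mice. Lean brown fat held 3.67 ± 0.850 CPM and lean EDL 1.94 ± 1.72 CPM. Neighbours overlapped at every step of this order. Set against 8 macrophage markers, Cfp was highest in cerebellum, at 22.6 to 67.2% of their summed CPM in DIO and 41.01 to 77.5% in lean libraries, with a median of 59.6% in DIO and 54.6% in lean libraries. In bulk tissue, fewer cells of a type and less RNA per cell cannot be told apart.

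The genes whose lean means were most like each member's over the 21 tissues were found by Pearson's r of log2(mean CPM + 1) among 3459 genes that reached 10 CPM in some tissue. These belong to the 13153 genes used, which cover 13.0 to 23.1% of each library's reads, and no gene outside them was searched. The 3 most alike for each member are given. The most alike genes were Abcb11 (0.98), AI182371 (0.98) and Hao1 (0.98) for Hc, Fga (0.94), 0610031O16Rik (0.93) and Fgg (0.93) for C8g, and Rgn (0.94), Agxt (0.91) and the complement inhibitor Cfi (0.90) for C4bp. All of these were highest in lean liver. For Cd55 they were Gm15675 (0.85), Dnase1l1 (0.80) and Mcl1 (0.79), for Cr1l Zfp217 (0.92), Hlx (0.91) and Shc1 (0.91), and for Cfp Inhbb (0.88), Fmr1 (0.88) and Prr32 (0.86). Among the members themselves Cd55 and Cr1l had r = 0.71, and Cfp reached at most 0.27 with any other. These values describe 21 tissue means that share their libraries with the levels above.

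With the diet, members were tested in 94 pairs of gene and tissue in which the gene averaged at least 1 CPM: Cd55, Cr1l and Cfp in 21 tissues, C8g in 15, Hc and C4bp in 8. Of these, 10 pairs rose in DIO mice, 1 fell and 83 did not pass, against 10.1% calls, 7.46% rises and 2.63% falls among all 65666 pairs of gene and tissue. Hc in epididymal fat, 1 of the 10 rises, averaged 1 CPM only through its DIO libraries. All but 1 of the 11 calls were in fat, where most calls of all genes lay as well. Of 6626 such calls, 1667 were in epididymal, 1310 in retroperitoneal, 1160 in mesenteric, 1157 in brown and 394 in subcutaneous fat. Cfp passed in 4 fat depots, Cd55 and Cr1l in 2 each, C8g in epididymal fat and jejunum, Hc in epididymal fat, and C4bp in none of its 8 tissues by limma, with 2 at an unadjusted p under 0.05, 1 call by DESeq2 (jejunum) and 0 by edgeR.

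Cfp, the properdin gene, rose in epididymal, mesenteric, retroperitoneal and brown fat of DIO mice. Epididymal fat held 168, 92.6, 157, 137 and 72.9 CPM in DIO libraries and 34.1, 35.3, 41.7, 45.4 and 48.6 CPM in lean libraries. Every DIO library lay above every lean one, which was so for 27.3% of the 3191 genes tested in this depot. The log2 difference was 1.53 (SE 0.22), a 2.90-fold change on CPM + 1, with an adjusted p of 8.29e-05 by limma in a depot where 52.2% of genes were called. Mesenteric fat held 67.2, 115, 69.4 and 85.2 CPM in DIO libraries and 30.6, 34.04 and 43.1 CPM in lean libraries. The groups were again apart, as for 49.4% of 3295 genes, and the difference was 1.19 (SE 0.21) with an adjusted p of 0.00748 by limma, beside 35.2% of genes called. The median of all genes there was 0.43, and the difference was 0.78 after rescaling by median-of-ratios factors, with an adjusted p of 0.0277.

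Retroperitoneal fat held 75.9, 114, 284, 148 and 80.1 CPM of Cfp in DIO libraries and 54.4, 45.1, 57.4, 48.3 and 52.2 CPM in lean libraries. All DIO libraries were above the lean ones, as for 26.1% of 3174 genes, and DIO 3 was the highest of all 204 libraries. The difference was 1.26 (SE 0.30) with an adjusted p of 0.00554 by limma, beside 41.3% of genes called. Without the 3 libraries with hepatocyte markers it was 1.22 with an adjusted p of 0.0559, which ended the call. Without DIO 3 and lean 2, the libraries with T cell and muscle markers, it was 0.91 with an adjusted p of 0.00576. In brown fat Cfp was at 3.81, 6.71, 10.4, 10.99 and 6.77 CPM in DIO libraries and 3.04, 3.63, 4.58, 4.46 and 2.65 CPM in lean libraries. DIO 1 lay within the lean range and the other 4 DIO libraries above it. The difference was 0.85 (SE 0.23) with an adjusted p of 0.0115 by limma, beside 41.8% of 2771 genes called. Without DIO 5 and lean 2, which carried muscle markers, it was 0.87 with an adjusted p of 0.0268.

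Subcutaneous fat gave no call for Cfp, with 32.5, 40.6 and 35.5 CPM in DIO libraries and 43.7, 55.99, 100.4, 38.2 and 28.8 CPM in lean libraries. The difference was -0.42 (SE 0.36), and -0.01 without lean 2 and lean 3, the libraries with high Cr2. In this depot 12.4% of 3171 genes were called. Over the 4 white fat depots the diet effect on Cfp differed between depots by a limma F test of diet by depot (adjusted p = 0.00638), which called 31.9% of 3243 genes. Leaving out each of 35 libraries in turn kept this call 35 times, with adjusted p-values of 0.00209 to 0.0284.

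**Figure D3:**
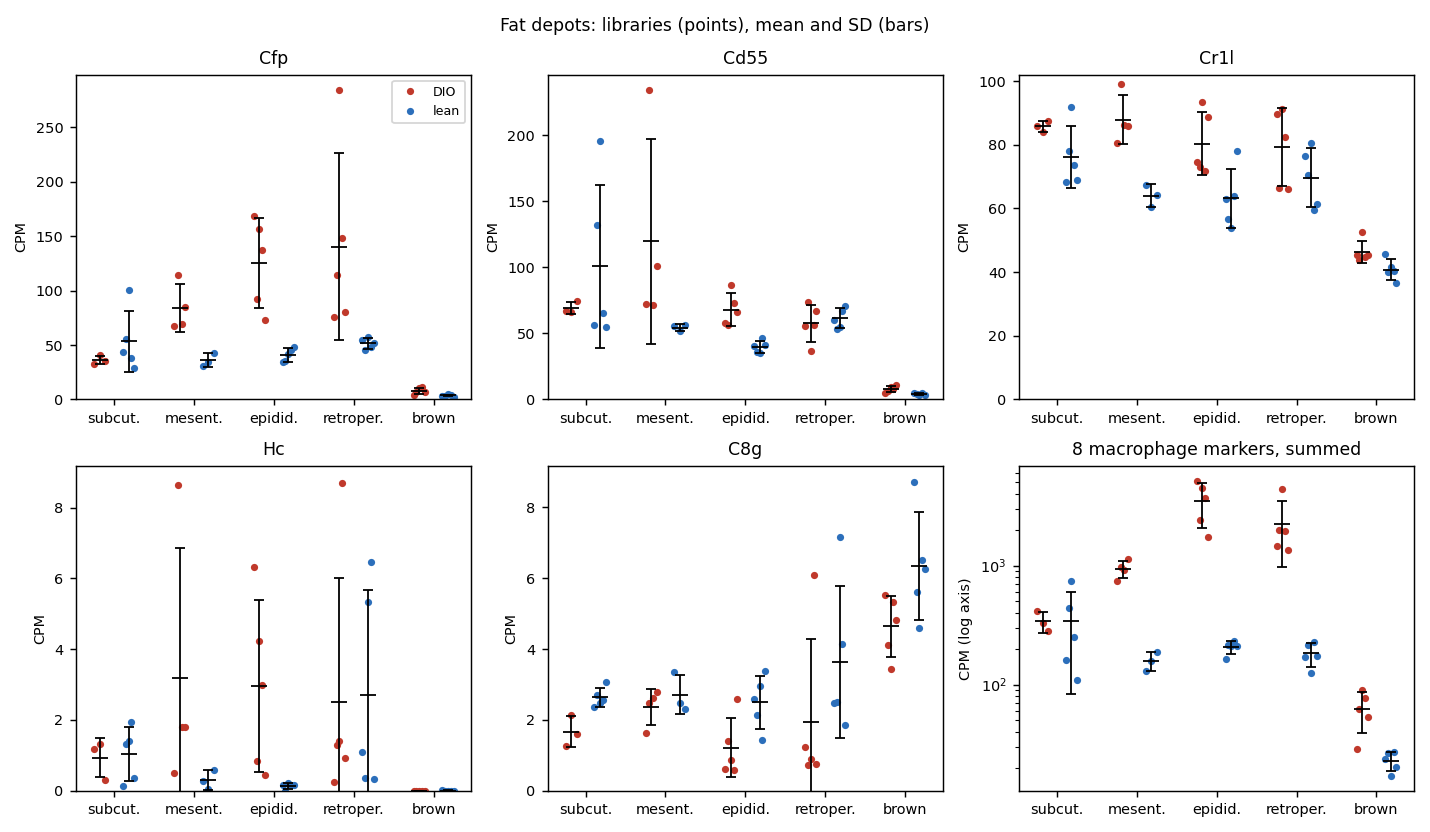
CPM of 5 members and the summed CPM of 8 macrophage markers (log axis in that panel) in 5 fat depots, DIO red and left, lean blue and right; points are libraries, bars the mean and SD, cut off at 0. DIO libraries of Cfp lie above the lean ones in mesenteric, epididymal and retroperitoneal fat, as do the macrophage marker sums.

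Markers of macrophages moved with Cfp, and their part in the result was not tested. The 8 markers (Ctss, Mrc1, Fcer1g, Atp6v0d2, Cybb, Slc11a1, Tlr7 and Tlr8) summed to 1751 to 5187 CPM in DIO and 162 to 235 CPM in lean epididymal fat, to 749 to 1129 CPM in DIO and 129 to 188 CPM in lean mesenteric fat, and to 1358 to 4402 CPM in DIO and 126 to 229 CPM in lean retroperitoneal fat. All 8 separated the diets in each of these depots, as did 27.3%, 49.4% and 26.1% of all genes with DIO above. In brown fat the sums were 28.98 to 90.2 CPM in DIO and 17.03 to 27.3 CPM in lean libraries, with 3 of 8 markers apart. In subcutaneous fat they were 282 to 417 CPM in DIO and 109.6 to 742 CPM in lean libraries, with 2 of 8 apart. By limma, which is a different rule, 832 of 2771 genes rose in brown fat and 278 of 3171 in subcutaneous fat. The shares of all genes with every DIO library above every lean one in these 2 depots are not given. Cfp amounted to 3.24 to 4.17% of the marker sum in DIO epididymal fat, against 16.2 to 23.2% in lean epididymal fat, and to 5.23 to 7.57% in DIO and about 21 to 45.5% in lean retroperitoneal fat. The marker sum differed by more than Cfp did in these depots. Adipocyte markers (Fabp4, Irs1 and Pck1) summed to 3946 to 11018 CPM in DIO and 14355 to 20473 CPM in lean epididymal fat.

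The adrenal gland had high Cfp in 2 DIO libraries, 112 CPM in DIO 1 and 142 CPM in DIO 2, with 1499.7 and 2603 CPM of macrophage markers. The other DIO libraries held 18.5, 32.3 and 8.49 CPM, against 13.2, 20.04, 8.34, 11.6 and 6.10 CPM in lean adrenal glands. DIO 1, DIO 2 and lean 1 are the libraries at or near 0 for the adrenal marker, and without them the difference was 0.67 in place of 1.73. Neither passed the test in the fit of this tissue.

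Cd55, which removes convertases from the cell surface, rose in epididymal and brown fat. In epididymal fat it was at 57.97, 56.3, 86.8, 72.7 and 66.4 CPM in DIO libraries and 40.3, 36.2, 35.2, 46.4 and 41.3 CPM in lean libraries. There was no overlap, as for 27.3% of 3191 genes with DIO above, in a depot where 52.2% were called. The difference was 0.74 (SE 0.14) with an adjusted p of 0.000611 by limma. In brown fat it was at 5.03, 6.39, 9.12, 7.85 and 10.7 CPM in DIO libraries and 4.88, 3.99, 3.33, 5.08 and 3.70 CPM in lean libraries. DIO 1 was just under the highest lean library, and the difference was 0.74 (SE 0.17) with an adjusted p of 0.00502 by limma. Brown fat DIO 5, which carried muscle markers, was the highest; without it and lean 2 the difference was 0.62 with an adjusted p of 0.0182. Both calls held in 10 of 10 fits that left out a library and in each of 8 alternatives.

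Markers of other cell types moved beside Cd55 in both depots, and their part in the result was not tested. In brown fat all 3 endothelial markers (Emcn, Eng and Egfl7) had every DIO library above every lean one, with sums of 238 to 293 CPM in DIO and 111 to 162 CPM in lean libraries. By limma, which is a different rule, 832 of 2771 genes rose in that depot, and the share of all genes with separate ranges is not given. In epididymal fat both mast cell markers (Fcer1a and Cpa3) were apart in the same direction, with sums of 36.95 to 201 CPM in DIO and 2.42 to 5.66 CPM in lean libraries, as were all 8 macrophage markers, while all 3 adipocyte markers had every DIO library below every lean one. Of all 3191 genes in epididymal fat, 27.3% had every DIO library above every lean one, and 556 fell by limma. The share of genes with every DIO library below every lean one in epididymal fat is not given. Endothelial markers there summed to 159 to 289.5 CPM in DIO and 267 to 349 CPM in lean libraries, with 1 of 3 apart and lower in DIO.

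Mesenteric fat held 72.3, 234, 71.2 and 101 CPM of Cd55 in DIO libraries and 55.6, 51.5 and 56.1 CPM in lean libraries. All DIO libraries were above the lean ones, as for 49.4% of 3295 genes, and DIO 2, with high Cr2, stood far above the rest. The difference was 0.94 (SE 0.40) with an adjusted p of 0.0982 by limma, and without DIO 2 it was 0.56 with an adjusted p of 0.0126, which made the call. The fit without DIO 2 called 1906 of 3230 genes, with a median difference of 0.38 over all genes. In retroperitoneal fat Cd55 was at 55.6, 73.5, 36.9, 56.1 and 67.2 CPM in DIO libraries and 60.5, 53.1, 55.2, 67.2 and 70.9 CPM in lean libraries, a difference of -0.11 (SE 0.18). In subcutaneous fat the difference was -0.34 (SE 0.43) with all libraries, and 0.24 (adjusted p = 0.0606, limma) without lean 2 and lean 3, which turned its direction.

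The diet by depot test gave Cd55 an adjusted p of 0.0466 (limma), and the call held in 12 of 35 fits that left out a library, with adjusted p-values up to 0.0841. It was lost without any of the 3 DIO or lean 2 or lean 3 libraries of subcutaneous fat, without DIO 4 or any lean library of mesenteric fat, without DIO 1, 3, 4 or 5 or lean 1, 2, 3 or 5 of epididymal fat, and without DIO 1, 3 or 4 or lean 1, 4 or 5 of retroperitoneal fat. Without the 5 white fat libraries that carry markers of another tissue the adjusted p was 0.0103, and without those with hepatocyte markers 0.0738. The other members had adjusted p-values of 0.147 (Hc), 0.446 (Cr1l) and 0.591 (C8g) in this test.

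Outside fat no Cd55 difference passed. In kidney Cd55 was at 14.9, 14.97, 9.81, 15.4 and 14.5 CPM in DIO libraries and 18.4, 21.2, 17.005, 17.3 and 18.4 CPM in lean libraries, which did not overlap, as for 1.39% of 3018 genes with DIO below. The difference was -0.40 (SE 0.12) with an adjusted p of 0.159 by limma in a tissue where 0.0663% of genes were called, and DESeq2 gave an adjusted p of 0.0408. In EDL it was at 49.4, 41.8, 53.3, 56.7 and 59.7 CPM in DIO and 65.1, 66.1, 86.2 and 65.1 CPM in lean libraries, also apart (0.72% of 2639 genes), with an adjusted p of 0.918 by limma. In ileum, where lean Cd55 was highest, levels were 115, 88.7, 52.2, 52.8 and 60.1 CPM in DIO libraries and 71.6, 132, 124, 56.9 and 144 CPM in lean libraries, with wide overlap.

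**Figure D4:**
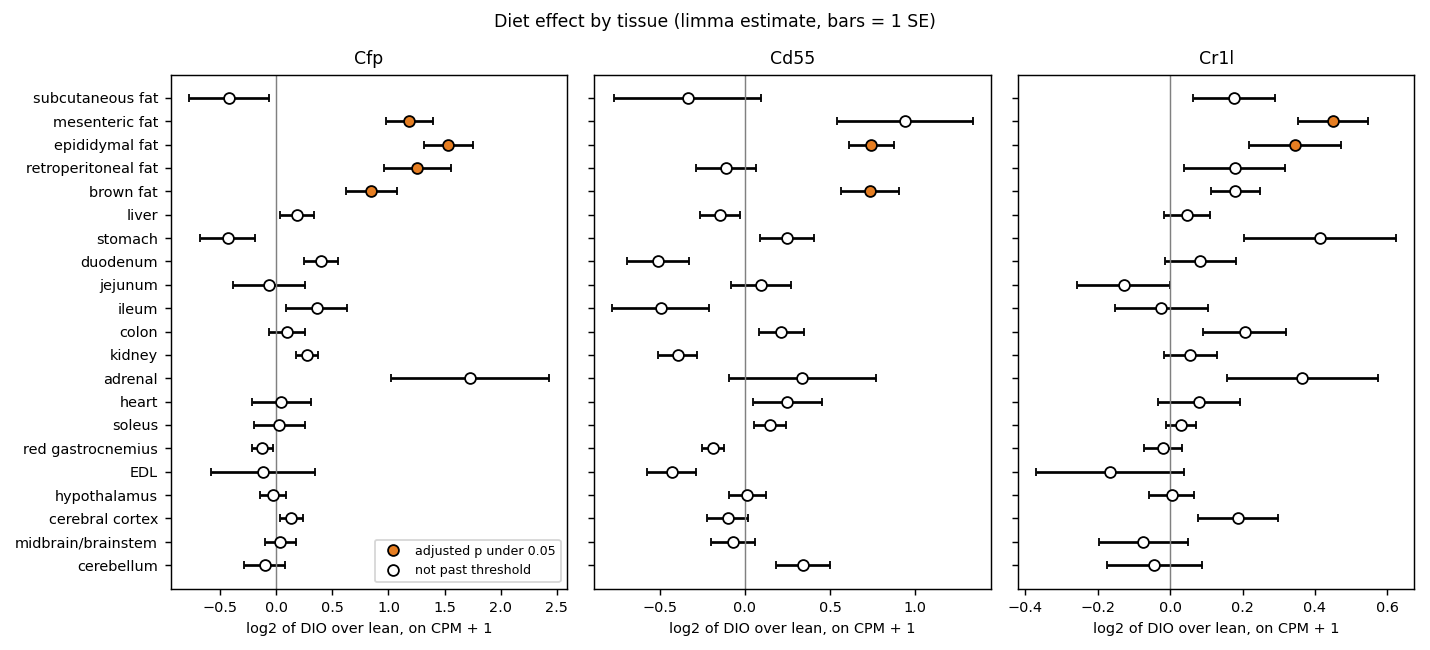
Log2 difference of DIO over lean on log2(CPM + 1), with 1 SE, for Cfp, Cd55 and Cr1l in 21 tissues; orange points have an adjusted p under 0.05 (limma). Orange points of Cfp lie in 4 fat depots between 0.85 and 1.53, those of Cd55 in epididymal and brown fat at 0.74, and those of Cr1l in mesenteric and epididymal fat at 0.45 and 0.35.

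Cr1l moved little. It passed in mesenteric fat, at 80.6, 98.9, 86.1 and 85.9 CPM in DIO libraries and 67.5, 60.3 and 64.1 CPM in lean libraries, a difference of 0.45 (SE 0.10) with an adjusted p of 0.0140 by limma. The groups did not overlap, as for 49.4% of 3295 genes with DIO above. The difference was near the median of all genes in this depot, 0.43. After rescaling it was 0.04 with an adjusted p of 0.735, edgeR gave 0.732 and DESeq2 0.714, and without lean 2 or lean 3 the adjusted p was 0.0661 or 0.0556. In epididymal fat Cr1l was at 74.7, 72.97, 93.3, 71.9 and 88.8 CPM in DIO libraries and 62.9, 56.7, 53.98, 64.001 and 78.1 CPM in lean libraries, which overlapped. The difference was 0.35 (SE 0.13) with an adjusted p of 0.0359 by limma, beside a median of 0.15 over all genes. It was 0.16 after rescaling (adjusted p = 0.222), and the call was also lost by edgeR, DESeq2, with no filter, and without DIO 3, DIO 5 or any of lean 1 to lean 4 (adjusted p-values of 0.0546 to 0.0965). In subcutaneous fat it passed without lean 2 and lean 3, with a difference of 0.28 in place of 0.18 and an adjusted p of 0.00919 in place of 0.349 (limma). That fit called 1361 of 3057 genes, against 394 of 3171 with all libraries, and the median of all genes was 0.10 in place of -0.04. In the 19 tissues without a call differences lay between -0.17 and 0.41.

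Hc, the C5 gene, rose in epididymal fat, where lean libraries held almost none. DIO libraries held 6.33, 0.841, 4.23, 2.98 and 0.456 CPM and lean libraries 0.158, 0, 0.216, 0.154 and 0.154 CPM. The DIO values rest on 3 to 549 reads and the lean ones on 0 to 3 reads per library. The groups did not overlap, as for 27.3% of 3191 genes with DIO above, in a depot where 52.2% were called. The difference was 1.55 (SE 0.39) with an adjusted p of 0.00495 by limma, and it was 4.20 by edgeR on reads (adjusted p = 0.000715), since the added 1 CPM shrinks folds of low genes. Hc reached the mean of 1 CPM only through its DIO libraries, so that a difference was built into its being tested; among 6786 genes tested with no filter its adjusted p was 0.0189 by limma. All 10 fits that left out a library kept the call.

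The hepatocyte marker sum of epididymal fat was 0.522, 6.02, 1.12, 1.97 and 0.608 CPM in DIO libraries and 2.74, 1.97, 3.39, 5.35 and 1.23 CPM in lean libraries, C4bp did not exceed 0.0443 CPM in DIO and 0.433 CPM in lean libraries, and C8g was lower in DIO mice. Macrophage markers were high in the same DIO libraries, as given above, and their part in the result was not tested. Mesenteric fat also held more Hc in its DIO libraries, 0.490, 8.64, 1.80 and 1.81 CPM against 0.286, 0.0415 and 0.587 CPM in lean libraries, but with overlap and an adjusted p of 0.105 by limma; DESeq2 gave 0.0259. There the hepatocyte marker sum was 10.6, 89.7, 41.3 and 49.2 CPM in DIO libraries and 18.9, 1.24 and 12.997 CPM in lean libraries, and C4bp was at 0.226, 3.05, 1.19 and 1.65 CPM in DIO and 0.531, 0 and 0.335 CPM in lean libraries, with DIO 2 highest in each. Heart lean 3 held 4.09 CPM of Hc with a hepatocyte marker sum of 0.761 CPM, while the other 9 heart libraries held at most 0.0478 CPM.

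C8g, the small lipocalin chain of C8, fell in epididymal fat and rose in jejunum. Epididymal fat held 0.626, 1.42, 0.879, 0.596 and 2.58 CPM in DIO libraries and 2.58, 2.15, 2.96, 1.44 and 3.39 CPM in lean libraries, with DIO 5 within the lean range and the other 4 DIO libraries below it. The difference was -0.70 (SE 0.25) with an adjusted p of 0.0343 by limma. The call was lost in a single fit over all libraries (adjusted p = 0.111), with no filter (0.0869), and without DIO 1, 3 or 4 or lean 1, 3 or 5 (0.0602 to 0.0865), while edgeR gave 0.0184 and DESeq2 0.00375. Fbxw5, which overlaps it, differed by -0.09 there (adjusted p = 0.442, limma).

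The other fat depots had C8g lower in DIO than in lean mice on average without passing the test. Subcutaneous fat was at 1.26, 2.14 and 1.61 CPM in DIO libraries and 2.36, 2.71, 2.47, 2.57 and 3.07 CPM in lean libraries, apart but with an adjusted p of 0.121 by limma, where 12.2% of 3171 genes had all DIO libraries below the lean ones. Brown fat was at 5.52, 4.12, 3.43, 5.32 and 4.82 CPM in DIO libraries and 8.72, 5.62, 4.58, 6.51 and 6.27 CPM in lean libraries, with an adjusted p of 0.0714 by limma, 0.0286 after rescaling, 0.0301 by edgeR and 0.0107 by DESeq2. Without brown fat DIO 5 and lean 2 the adjusted p was 0.0933 (limma). Retroperitoneal fat was at 1.22, 0.738, 0.903, 6.10 and 0.754 CPM in DIO libraries and 2.48, 2.52, 7.16, 4.15 and 1.87 CPM in lean libraries. Without the 3 libraries with hepatocyte markers the difference was -0.79 in place of -0.80, and the adjusted p 0.0212 in place of 0.138 (limma). That fit called 950 of 3146 genes. Mesenteric fat differed by -0.14 (SE 0.20).

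In jejunum C8g was at 4.86, 2.76, 2.54, 1.77 and 2.45 CPM in DIO libraries and 1.07, 1.42, 1.38, 0.941 and 0.561 CPM in lean libraries, with no overlap, as for 3.24% of 3153 genes. The difference was 0.87 (SE 0.22) with an adjusted p of 0.0401 by limma, where 5.42% of genes were called. Only 2 of 10 fits that left out a library kept the call; without DIO 1, 2 or 3 or any lean library the adjusted p was 0.0554 to 0.100. It was also lost with a pseudocount of 5 (0.0503), no filter (0.107) and a single fit (0.112). Fbxw5 differed by -0.07 (adjusted p = 0.820, limma). Markers of intestinal epithelium (Fabp2, Car1 and Vil1) summed to 7459 to 28308 CPM in DIO and 3441 to 9374 CPM in lean jejunum, with none of the 3 apart, and their part in the result was not tested. In duodenum C8g was at 1.90, 2.36, 2.16, 2.32 and 2.32 CPM in DIO libraries and 1.66, 1.53, 1.27, 1.59 and 1.59 CPM in lean libraries, also apart (1.8% of 3216 genes), with a difference of 0.35 (SE 0.11) and an adjusted p of 0.169 by limma.

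C4bp, the soluble inhibitor of the classical and lectin pathways, came closest to the threshold in jejunum. DIO libraries held 3.05, 5.94, 1.59, 3.08 and 3.41 CPM and lean libraries 4.65, 7.34, 13.8, 8.10 and 6.90 CPM, overlapping only through DIO 2. The difference was -1.05 (SE 0.29) with an adjusted p of 0.0508 by limma, 0.0507 by edgeR, 0.00547 by DESeq2 and 0.0412 after rescaling. Duodenum and ileum had lower means in DIO than in lean mice as well, with differences of -0.38 (SE 0.16) and -0.43 (SE 0.21), and colon had a higher one, with a difference of 0.47 (SE 0.23), with adjusted p-values (limma) of 0.196, 0.874 and 0.313. Stomach was at 14.7, 12.8, 8.47, 10.9 and 7.19 CPM in DIO libraries and 8.93, 7.86, 7.33, 7.07 and 44.1 CPM in lean libraries, which overlapped.

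Beside the 6 members, 14 other genes of the pathway were followed: the soluble inhibitors Cfi and Serping1, the plasma protein genes Cfhr2, Cfhr3 and Gm4788, the membrane regulators Cd46, Cd55b, Cd59a, Cd59b and Susd4, the receptors Cr2 and Vsig4, and the lectins Fcna and Fcnb. In 135 pairs of gene and tissue 12 rose (8.89%), 5 fell (3.7%) and 118 did not pass, against 7.46% rises and 2.63% falls among all pairs. In epididymal fat, where 52.2% of 3191 genes were called, 2 of 8 rose and 2 fell, with a median log2 difference of -0.33 over the list and 0.15 over all genes. The 5 members tested there had 4 rises, 1 fall and a median of 0.74. Hc, 1 of the 4 rises, reached 1 CPM on average only through its DIO libraries, so its direction was built in. In the other list the same held for the rise of Vsig4, and for the fall of Susd4 through lean libraries.

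Serping1, the gene of C1 inhibitor, rose beside Cfp in 3 white fat depots. In epididymal fat Serping1 was at 779, 561, 790.3, 730.0 and 559 CPM in DIO libraries and 201, 91.6, 173, 263 and 201 CPM in lean libraries, a difference of 1.93 (SE 0.24). The groups did not overlap, as for 27.3% of 3191 genes with DIO above, and the adjusted p was 3.15e-05 by limma. The difference was 1.18 in mesenteric, 1.61 in retroperitoneal and 0.55 in brown fat, with adjusted p-values (limma) of 0.0115, 0.000418 and 0.0234. Without brown fat DIO 5 and lean 2 the brown fat difference was 0.47 with an adjusted p of 0.0586, which ended the call. Vsig4, a receptor of tissue macrophages, rose in epididymal (3.66 ± 1.14 against 0.668 ± 0.514 CPM) and retroperitoneal fat (3.58 ± 1.55 against 0.778 ± 0.687 CPM), in DIO against lean libraries (SD, n = 5 each), with adjusted p-values (limma) of 0.000235 and 0.00299.

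Membrane regulators went both ways. Cd59a, an inhibitor of the membrane attack complex, rose by 1.36 in subcutaneous fat, 0.53 in brown fat and 0.54 in liver. Without subcutaneous lean 2 and lean 3, the Cd59a difference in that depot was 0.92 with an adjusted p of 0.000189 by limma. Cd59b, its paralog and uncertain where reads could be split between the pair, fell in mesenteric and retroperitoneal fat, with log2 differences of -1.01 and -0.61, and rose by 0.40 in liver. Without retroperitoneal DIO 3 and lean 2 the adjusted p of Cd59b there was 0.0509 (limma), which ended the call, while without subcutaneous lean 2 and lean 3 Cd59b passed in that depot (-0.63, adjusted p = 0.00586), and without mesenteric DIO 2 Cd59a passed in that one (0.52, adjusted p = 0.00104). These fits called 1110 of 3144 genes in retroperitoneal, 1361 of 3057 in subcutaneous and 1906 of 3230 in mesenteric fat. Cd46, which lies beside Cr1l, fell in epididymal fat at 3.48, 3.85, 4.22, 4.99 and 3.50 CPM in DIO libraries and 7.42, 8.95, 6.42, 4.84 and 7.50 CPM in lean libraries, and rose in jejunum at 3.96, 4.14, 5.51, 5.24 and 4.37 CPM in DIO libraries and 2.51, 1.59, 2.24, 2.46 and 2.19 CPM in lean libraries. Susd4 averaged 0.482 ± 0.423 CPM in DIO and 6.44 ± 7.37 CPM in lean epididymal fat (SD, n = 5 each), a difference of -1.68 (SE 0.61) with an adjusted p of 0.0336 by limma. In liver Cfhr2 fell to 419 ± 18.02 CPM in DIO livers, against 509 ± 50.1 CPM in lean livers. In duodenum, where 0.311% of 3216 genes were called, Cfhr2 differed by 1.36 (SE 0.21) with an adjusted p of 0.0272 by limma. Vsig4 in both fat depots, and Cfhr2 in duodenum, reached 1 CPM on average only through DIO libraries, and Susd4 in epididymal fat only through lean ones.

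**Figure D5:**
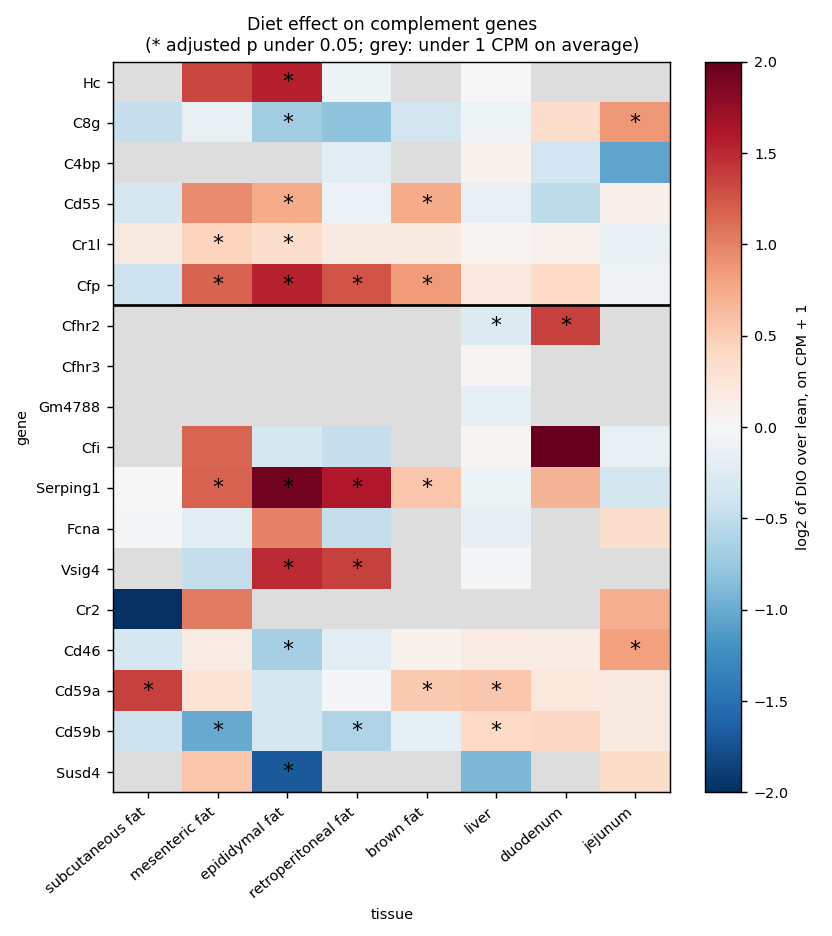
Log2 difference of DIO over lean on log2(CPM + 1) for the 6 members (above the line) and the other complement genes with a value in 8 tissues; stars mark an adjusted p under 0.05 (limma), grey cells averaged under 1 CPM, and colours end at 2 and -2. Cfp and Serping1 are starred in mesenteric, epididymal and retroperitoneal fat.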

How the data were processed

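Poly(A) RNA from 204 libraries was made into stranded paired-end libraries (TruSeq kit, HiSeq 2000), per the labels' protocols. FastQC, STAR, HTSeq and DESeq2 are named, per the submitters' processing notes, without versions; the authors' genome build and HTSeq's strand setting were not given in these sources. The deposited table holds CPM for 13154 genes, of which 1 was incomplete and was left out. It covers 13.0 to 23.1% of each library's reads, and genes on other chromosomes, among them most of the complement system, were not analysed here. It has 1 column that matched no sample and was not used. The steps of the deposited CPM values gave back whole reads for 100% of values (tolerance 0.01 read), so total reads per library were known (6.58 to 129.7 M) and count tests could be run on the recovered counts. These precisions cover counting error only.

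In each tissue, DIO and lean libraries were compared by limma 3.58.1 (R 4.3.3) on log2(CPM + 1), for genes averaging 1 CPM or more, with Benjamini-Hochberg adjustment over those genes and a threshold of 0.05. The diet by depot test was a limma F test over 4 white fat depots. Alternatives were edgeR 4.0.16 (quasi-likelihood, TMM) and DESeq2 1.42.0 on recovered counts, a pseudocount of 5, a filter at 10 CPM, no filter, median-of-ratios rescaling, array weights, 1 joint fit of all libraries, and leaving out each library of a tissue where a member was called, the 10 libraries with markers of another tissue or, chosen after seeing the data, those over 100 CPM of hepatocyte markers. The tests were checked on simulated reads with the same spread for all genes and the same mix of tissue in every library. That check does not cover libraries of wider or uneven spread, or ones that carry markers of another tissue. In 398 pairs of libraries of 1 group, the chi-square per degree of freedom was at least 3.48, so none was counted as a duplicate.

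All 6 members were described in every tissue. Of the other complement genes those past the threshold were named, at most 4 per tissue in order of size, and for each member the 3 genes most like it. The members and lists were chosen with earlier results of these data known. Some genes of the pathway are not reported here. Promoter windows were taken from RefSeq (GRCm38.p6) by gene symbol. Gene positions and lengths came from GENCODE M21, which held 13139 of the identifiers.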

Additional observations from a re-analysis of the deposited data

Results flagged for a closer look

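In groups of 4 or 5 libraries, a library was listed where its gap to the nearest of the others was too large a part of the group's range by Dixon's test. Of 179 groups looked at, 20 had such a value, and chance gives about 1 in 20. Of the 20, 11 are in libraries with hepatocyte markers.

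Adrenal DIO 1 held 370.7 CPM of Hc, 187.8 CPM of C8g and 293.0 CPM of C4bp, against at most 1.62, 2.03 and 1.36 CPM in the other DIO adrenal glands. Retroperitoneal fat DIO 4 held 8.70 CPM of Hc, 6.10 of C8g and 8.25 of C4bp, against at most 1.41, 1.22 and 0.183 CPM in the other DIO libraries. Stomach DIO 5 held 3.08 CPM of Hc and 3.25 of C8g, against at most 0.294 and 1.47 CPM in the other DIO libraries. Stomach lean 5 held 35.0 CPM of Hc, 37.1 of C8g and 44.1 of C4bp, against at most 3.94, 4.61 and 8.93 CPM in the other lean libraries. All 4 libraries had over 100 CPM of hepatocyte markers.

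Mesenteric fat DIO 2, with high Cr2, held 8.64 CPM of Hc, against at most 1.81 CPM in the other DIO libraries. Liver DIO 2 held 793.7 CPM of C4bp, against 603 to 618.5 CPM in the other DIO livers. Epididymal fat lean 2 had 0 CPM of Hc, against 0.154 to 0.216 CPM in the other lean libraries. These lean values rest on 0 to 3 reads per library.

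Cd55 stood apart 4 times. It was at 9.81 CPM in kidney DIO 3, against 14.5 to 15.4 CPM in the other DIO kidneys, and at 6.22 CPM in cerebral cortex DIO 5, against 4.03 to 4.44 CPM. It was at 18.1 CPM in heart lean 3, against 7.90 to 10.5 CPM in the other lean hearts, and at 86.2 CPM in EDL lean 3, against 65.1 to 66.1 CPM. Heart lean 3 is the library with 4.09 CPM of Hc.

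Cr1l was at 52.5 CPM in brown fat DIO 3, against 43.7 to 45.4 CPM in the other DIO libraries. Cfp was at 5.78 CPM in EDL DIO 3, against 0.526 to 1.29 CPM in the other DIO libraries, where the macrophage marker sum was 69.2 CPM in DIO 3 and 3.61 to 69.2 CPM over all 5.

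Over the 4 white fat depots the diet effect differed between depots for Cfp (adjusted p = 0.00638, limma) and Cd55 (adjusted p = 0.0466, limma). Without hepatocyte-marker libraries the adjusted p of Cd55 was 0.0738.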

How the results depend on the processing

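The 6 members had 10 rises and 1 fall with diet, and no call changed sign under any alternative. Rises numbered 19 with array weights and 9 to 11 when 1 library was left out. Over all genes array weights also gave more calls, 1537 in place of 1 in stomach, 1282 in place of 10 in duodenum and 2002 in place of 1160 in mesenteric fat. DESeq2 gave more falls over all genes, 906 in place of 556 in epididymal fat and 612 in place of 325 in brown fat. In no tissue did either go the other way. Falls numbered 4 by DESeq2, 7 with array weights, 2 by edgeR, 3 after rescaling, 2 without the libraries with hepatocyte markers (chosen after seeing the data), 0 with a filter at 10 CPM, 0 with no filter, and 0 to 2 when 1 library was left out. The other complement genes had 12 rises (11 to 13 when 1 library was left out) and 5 falls (4 to 6), with 9 falls by DESeq2, 1 with a filter at 10 CPM and 3 with no filter. A filter at 10 CPM tests fewer genes; for the other settings the cause was not tested. The diet by depot test called 2 members, and 1 with a pseudocount of 5, after rescaling and without the libraries with hepatocyte markers, and 1 or 2 when 1 library was left out.

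For the 11 member calls taken singly, 76 of 89 alternatives and 82 of 104 fits without 1 library kept the call; the others kept the direction. Rescaling moved the split of all calls: 877 rises and 808 falls in place of 1111 and 556 in epididymal fat, 259 and 420 in place of 979 and 181 in mesenteric fat, 608 and 501 in place of 1023 and 287 in retroperitoneal fat, 624 and 585 in place of 832 and 325 in brown fat, and 95 and 65 in place of 77 and 94 in jejunum. The median of all genes was 0.43, 0.23 and 0.15 in mesenteric, retroperitoneal and epididymal fat.

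Tissues of the same mouse could not be matched because the labels do not tie libraries to mice. The diet by depot test therefore treated libraries of different depots as independent. Depth limits Hc and C4bp most, which lie at a few reads or none in most muscle and brown fat libraries. Mesenteric and subcutaneous fat have 3 libraries in 1 group.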
